A study of Mus musculus with 6 samples.

Results

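ATAC-seq compared open chromatin between WT cells and cells without Cebpa and Cebpb (dKO), and at 112 loci the comparison gave neighbouring regions that switched in opposite directions. The members were the listed regions that stood next to each other along a chromosome, no more than 10 kb apart from the end of one to the start of the other, with accessibility lower in dKO on one side and higher on the other. They were chosen by the sign of the difference between the dKO and WT group means, so the differences below describe the choice and no test of them was made. The rule found 114 opposite-sign pairs holding 226 of the 10016 listed regions (2.26%), 112 of them lower and 114 higher in dKO. Of the loci, 110 held 2 regions and 2 held 3 regions.

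The cells were mouse fetal liver cells immortalised with the MLL-ENL fusion oncogene and grown in interleukin 3. WT cells carried floxed, undeleted Cebpa and Cebpb according to the study's methods, and their labels name no vector. The dKO cells (Cebpa KO, Cebpb KO, with GFP) were clones that grew out after Cre protein treatment, and the other genes of the C/EBP family were not targeted. The remaining group, dKO-LAP*, carried the rat C/EBPβ isoform LAP* with GFP and was not analysed here. Each group had 2 libraries, but the deposited values are the authors' means over the 2 WT and the 2 dKO libraries, in log2 normalised reads, so no spread between replicates can be given. Genotype, GFP vector and clonal origin cannot be told apart in this contrast. Depth per library was not part of the table. The lowest listed mean, -0.15 in both groups, was taken as the level of 1 read per library, which the deposited values do not state. On that assumption a floor of 3 reads per library lies at 1.43.

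C/EBPα and C/EBPβ are leucine zipper transcription factors that drive granulocyte and monocyte development, and both can open chromatin at enhancers. Accessible regions usually mark promoters and enhancers, and a gene is commonly surrounded by several enhancers that different factors occupy. AP-1 factors (the Jun, Fos and Batf families) are leucine zipper proteins with a different recognition sequence, and PU.1 and RUNX1 are further factors of blood cell enhancers.

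The sequences shown illustrate the motifs described below, and come from pairs in which the lower region held the C/EBP motif and the higher region held AP-1, PU.1 or RUNX within the central 200 bp. This arrangement was found in 30 of the 114 pairs (26.3%), and 27 pairs (23.7%) held none of these motifs in either region. The part of this arrangement in the accessibility changes was not tested. Over all listed regions, too, C/EBP was more frequent in the lower and AP-1, PU.1 and RUNX in the higher ones. Among the pairs named by the rules in the methods, 6 had this arrangement and none the reverse. Each stretch below runs 5′ to 3′ on the plus strand of GRCm38.p6 (mm10), and the capitals mark the match to the motif named before the colon, with up to 40 bases on either side inside the searched window. None of the stretches overlaps an annotated UTR.
G2e3 lower region, chr12:51346368-51346437, C/EBP: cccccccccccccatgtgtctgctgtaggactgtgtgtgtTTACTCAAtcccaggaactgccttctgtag
G2e3 higher region, chr12:51355286-51355335, RUNX: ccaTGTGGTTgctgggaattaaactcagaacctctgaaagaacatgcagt
9930022D16Rik lower region, chr11:109414901-109414988, C/EBP: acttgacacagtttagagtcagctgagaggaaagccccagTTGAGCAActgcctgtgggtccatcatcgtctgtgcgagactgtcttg
9930022D16Rik higher region, chr11:109417623-109417709, AP-1: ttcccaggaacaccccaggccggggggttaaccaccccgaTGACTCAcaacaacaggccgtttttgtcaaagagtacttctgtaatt
Acoxl lower region, chr2:127854403-127854481, C/EBP: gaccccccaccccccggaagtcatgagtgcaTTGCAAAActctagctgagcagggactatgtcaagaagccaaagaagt
Acoxl higher region, chr2:127846701-127846783, AP-1: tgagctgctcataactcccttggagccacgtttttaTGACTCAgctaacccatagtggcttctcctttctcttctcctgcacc
Cnbp lower region, chr6:87866402-87866489, C/EBP: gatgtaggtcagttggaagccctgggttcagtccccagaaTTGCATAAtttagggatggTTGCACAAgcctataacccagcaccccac
Cnbp higher region, chr6:87869108-87869194, AP-1: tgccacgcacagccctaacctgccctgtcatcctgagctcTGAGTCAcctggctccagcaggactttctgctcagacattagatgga
BC024139/Eppk1 lower region, chr15:76126990-76127077, C/EBP: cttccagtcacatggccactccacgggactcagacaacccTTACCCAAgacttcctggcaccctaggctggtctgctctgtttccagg
BC024139/Eppk1 higher region, chr15:76118020-76118106, RUNX: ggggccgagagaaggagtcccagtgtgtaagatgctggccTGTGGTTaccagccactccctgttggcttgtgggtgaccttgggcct
Rbp4/Pde6c lower region, chr19:38124892-38124979, C/EBP: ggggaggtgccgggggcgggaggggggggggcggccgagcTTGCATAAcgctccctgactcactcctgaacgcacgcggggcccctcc
Rbp4/Pde6c higher region, chr19:38134916-38135002, AP-1: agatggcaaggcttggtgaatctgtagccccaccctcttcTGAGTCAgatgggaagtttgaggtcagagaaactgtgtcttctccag

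The Cnbp lower region held 2 C/EBP matches in this stretch, and a RUNX match elsewhere in its window. The Rbp4 stretch also holds an AP-1 match in lower case, and this was the single AP-1 match among the 112 lower members. The stretch from the higher region of 9930022D16Rik also holds a C/EBP match in lower case, near its 3′ end. A match describes letters in the window and is not a measured binding site.

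Of 1368 adjacent pairs within 10 kb, 114 were of opposite sign (8.33%, 95% Wilson interval 6.98 to 9.92), 941 were higher on both sides (68.8%) and 313 were lower on both sides (22.9%). Over all listed regions 60.3% were higher in dKO, with a median difference of 0.98. With this median subtracted before signs were read, 354 pairs were of opposite sign (25.9%, 23.6 to 28.3), so the share depends on the centring. The share of opposite pairs grew with distance: it was 1.50% of the 200 pairs up to 0.5 kb apart, 4.58% of 153 between 1 and 2 kb, 12.9% of 556 between 5 and 10 kb, and 40.9% of 4525 more than 100 kb apart. The median gap was 6155.5 bp in opposite-sign pairs and 3763 bp in same-sign pairs. The intervals here and below cover counting error only, and neighbouring regions are not replicates.

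**Figure D1:**
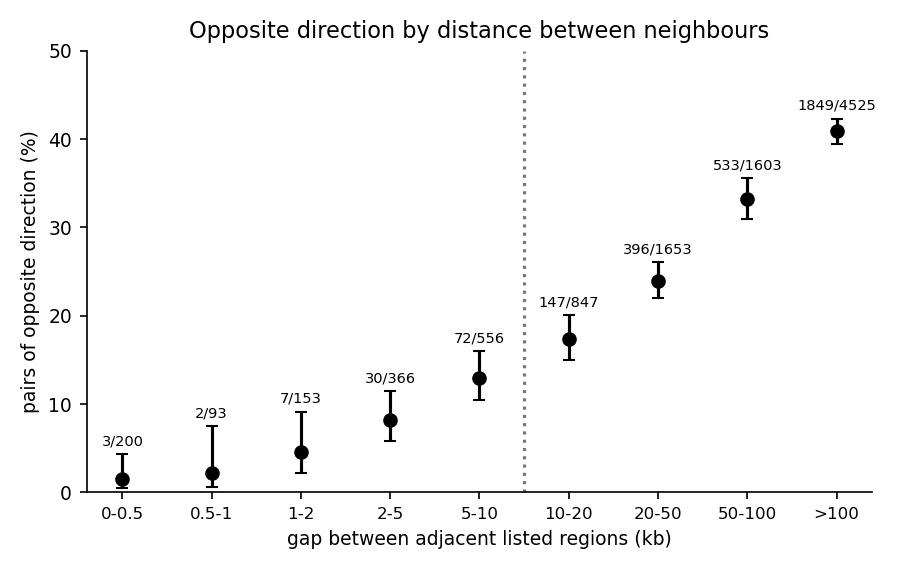
Share of adjacent listed regions whose dKO minus WT differences have opposite signs (y axis, percent) by the gap between them (x axis, kb). Points are shares, bars are 95% Wilson intervals, numbers are opposite pairs over all pairs, and the dotted line is the 10 kb limit; the share grows from 1.50% to 40.9%.

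The 10 kb limit passed through a continuous range. The last pairs inside it lay near Cpb2 (10000 bp) and within the genes Tns3 (9978 bp) and Kcnq3 (9945 bp). At Cpb2 the lower region had log2 means of 6.94 (WT) and 6.08 (dKO), and its neighbour 4.47 and 6.14. Just outside, near Ldhal6b (10025 bp), the means were 5.71 and 2.17 for the lower region and 5.94 and 6.98 for the higher. Near Tomm20 (10101 bp) they were 6.91 and 5.96, against 5.57 and 7.14. The change at Ldhal6b (-3.54) exceeded those of the lower regions of the 3 pairs just inside (-0.86 to -1.51), and that at Tomm20 (-0.95) lay within their range.

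The median change of the lower members was -1.48 on the log2 scale (quartiles -1.92 and -1.10), from a median level of 6.13 in WT to 4.57 in dKO. Lower regions in same-sign pairs had a median of -2.12. The higher members had a median of 1.53 (quartiles 1.21 and 2.13), against 1.56 in same-sign pairs, and went from a median level of 4.32 to 5.95. At least 2-fold lower were 92 of the 112 lower members (82.1%), where 35.9% of all listed regions were at least 2-fold lower. At least 2-fold higher were 99 of the 114 higher members (86.8%), where 49.6% of all listed regions were. These backgrounds count both directions in their denominators, and the rule used the same contrast, so nothing is read from the comparison. Both changes reached 2-fold in 84 pairs (73.7%) and 4-fold in 13 pairs (11.4%).

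**Figure D2:**
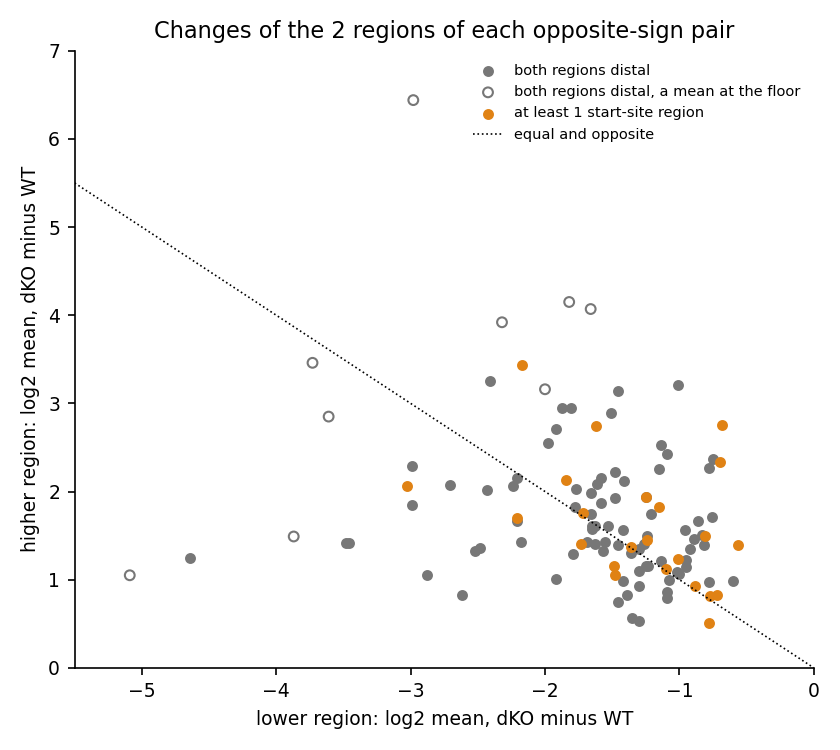
Change of the lower region (x axis, log2 mean in dKO minus WT) and of the higher region (y axis, same scale) in each of the 114 pairs. Open circles are the 9 pairs with a mean at or under the floor of 3 reads per library, orange marks pairs with a region at a coding start site, and the dotted line marks equal and opposite changes; the points lie on both sides of it.

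The order of the levels is a description, because it comes from the same means that chose the pairs. Over all listed regions the lower ones had median levels of 5.93 in WT and 3.98 in dKO and the higher ones 4.52 and 6.23, an order that also swaps. In 102 pairs (89.5%) the region that closed was the stronger of the pair in WT, and in 94 pairs (82.5%) the region that opened was the stronger in dKO. The order swapped in 82 pairs (71.9%). In 20 pairs the lower region stayed the stronger, and in 12 the higher region was the stronger in both groups. Summed over the 2 regions, accessibility moved by less than 2-fold in 110 of 114 pairs (96.5%), with a median log2 change of -0.09. The other 4 were G2e3 (-1.03), Rasal1 (-1.34), Cnbp (1.45) and Dhx34 (1.24), the last chosen after its values were seen. In same-sign pairs the sum moved by less than 2-fold in 195 of 1254 (15.6%), a contrast that the choice of signs fixes.

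The strongest switches above the floor were ranked by the smaller of the 2 changes, and 9 of the 10 named pairs are described here. Near G2e3, which encodes a ubiquitin ligase, a region upstream of the gene (chr12:51346179-51346498) went from 6.79 in WT to 4.38 in dKO, 5.31-fold lower. An intronic region 8708 bp away (chr12:51355206-51355567) went from 1.89 to 5.14, 9.51-fold higher. Of these 2 listed regions, the stronger was thus upstream of the gene in WT and inside it in dKO. Within Msra, which repairs oxidised methionine, an intronic region (chr14:64373384-64373604) went from 4.44 to 1.45 and another intronic region 4797 bp away (chr14:64368269-64368587) from 2.61 to 4.90. The dKO mean of the former lies just above the floor.

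Acoxl, which encodes an acyl-CoA oxidase-like protein, had its strongest closing at a start site. The region there (chr2:127854316-127854691) went from 5.89 to 2.86, 8.17-fold lower. An intronic region 7685 bp upstream of that start site (chr2:127846660-127846943) went from 3.16 to 5.22, 4.17-fold higher. In 9930022D16Rik, both regions were intronic and 2405 bp apart. The lower (chr11:109414827-109415129) went from 5.03 to 2.86, and the higher (chr11:109417534-109417875) from 1.89 to 5.32, the largest rise among the 9 pairs at 10.8-fold.

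Near Cnbp, a gene for a zinc finger nucleic acid-binding protein, intergenic regions 2279 bp apart went from 4.95 to 3.03 (chr6:87866303-87866592) and from 4.32 to 7.03 (chr6:87868871-87869420). Another listed region farther along, no member because its neighbour moved the same way, went from -0.15 to 4.92. This locus therefore held 1 closing and 2 opening regions.

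The other 4 pairs of the 9 lay near Phlda1, Mrap, Ccdc54 and Copg2. Copg2, which encodes a coat protein of transport vesicles, had both regions in introns: 4.73 to 2.75 (chr6:30883486-30883868) and 1.89 to 4.44 (chr6:30876774-30876990). Mrap, an accessory protein of the melanocortin 2 receptor, had an exonic region going from 5.26 to 3.02 (chr16:90747063-90747589) and a region 1119 bp upstream of its start site going from 3.28 to 5.34 (chr16:90736836-90737205). At 70938 and 64876 bp from the start site of Ccdc54 the means were 5.87 and 3.44, against 3.85 and 5.87. The order of levels differed between WT and dKO in all 9 pairs, which their choice by the size of both changes favours.

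**Figure D3:**
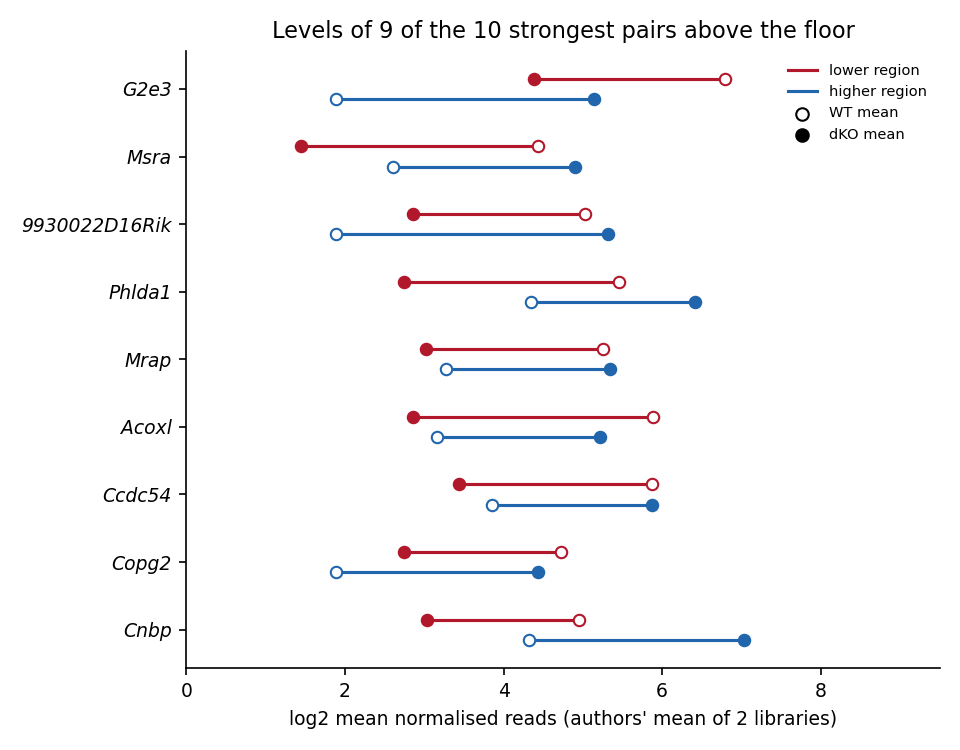
Authors' mean levels (x axis, log2 normalised reads, mean of 2 libraries) of both regions in 9 of the 10 pairs with the largest smaller change, WT as open and dKO as filled circles. In each pair the lower region (red) is the stronger in WT and the higher region (blue) is the stronger in dKO, which the choice of pairs by both changes favours; there are no error bars because only group means were given.

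Prkcb and Dnal1, chosen after their values were seen, had larger changes but a mean under the floor. In Prkcb, the gene of protein kinase C beta, intronic regions 1792 bp apart went from 5.18 to 1.45 (13.3-fold lower) and from 1.33 to 4.79, at least 10.2-fold higher. In Dnal1, a gene for a dynein light chain, the lower region went from 5.53 to 2.55 and the higher from -0.15 to 6.29, at least 28.9-fold higher. In all, 9 members were at or under the floor in their lower group.

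The closest opposite neighbours were 442 bp apart at Ccdc102a. There a start-site region (chr8:94917378-94918042) went from 7.99 to 6.63 and an intronic region (chr8:94916623-94916936) from 3.97 to 5.34. Near Znrd1as the gap was 468 bp, with exonic regions of the pseudogene H2-M6-ps going from 6.03 to 4.78 (chr17:36970317-36970679) and from 5.14 to 6.29 (chr17:36971147-36971780). The reads of this pair may be uncertain, as the gene belongs to the major histocompatibility family, whose members resemble each other. How the reads mapped was not examined. In Abca4, a retinal lipid transporter gene, intronic regions 499 bp apart went from 6.01 to 4.53 (chr3:122121981-122122427) and from 3.55 to 5.48 (chr3:122122926-122123236).

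Plekha2, which encodes a phosphoinositide-binding protein, had a lower intronic region (5.95 to 4.60, chr8:25066742-25067151) 720 bp from a strong one that opened further (8.13 to 8.69, chr8:25067871-25068547). In the intergenic pair nearest to Phlda1, 76232 and 77579 bp from its start site, the gap was 928 bp, and the lower region (chr10:111582518-111582937) fell from 5.46 to 2.75 while its neighbour (chr10:111583865-111584309) went from 4.35 to 6.42. Phlda1 was the only locus to be both among the 10 strongest and the 5 closest pairs. Of these 5 closest pairs, Znrd1as, Abca4 and Phlda1 exchanged their order of levels.

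Start-site regions were 11.9% of the members (8.34 to 16.8) and 12.1% of all listed regions (11.5 to 12.8). Both regions were distal, farther than 1 kb from a coding start site, in 91 pairs (79.8%, against 77.4% of same-sign pairs), both were at a start site in 4 pairs (Ccdc102a, Rin1, Ankrd2 with Hoga1, and Pigz with 0610012G03Rik, the last 3 named after their values were seen), and 19 pairs joined a start-site and a distal region. In these 19 the start-site region was the lower in 15 and the higher in 4 (21.1%, 8.51 to 43.3). Same-sign pairs of a start-site and a distal region numbered 206, of which 152 were higher on both sides (73.8%). Start-site regions made up 17.0% of the lower members (11.1 to 25.0) and 7.02% of the higher members (3.60 to 13.2), against 16.8% and 13.5% in same-sign pairs and 13.7% and 11.1% over all listed regions. The intervals of the lower and higher members overlap.

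Besides Acoxl and 9930022D16Rik, 6 start-site pairs were named by size. At Aebp1, a gene of the extracellular matrix, the start-site region (chr11:5862714-5863136) went from 5.92 to 3.71 and a region upstream (chr11:5858129-5858473) from 3.74 to 5.44. At Rbp4, the plasma carrier of retinol, the start-site region (chr19:38124481-38125324) went from 6.46 to 4.74, and an intronic region of the adjoining gene Pde6c (chr19:38134803-38135154) from 4.01 to 5.77. The start site of BC024139 (chr15:76126862-76127235) went from 6.34 to 4.50 and an intronic region of Eppk1, the epiplakin gene (chr15:76117913-76118226), from 3.46 to 5.59. In the latter 2 cases the regions of the pair belong to neighbouring genes.

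At Rasal1, which encodes a Ras GTPase-activating protein, a strong start-site region (chr5:120648619-120649609) went from 8.83 to 7.10 and stayed stronger than its neighbour (chr5:120643678-120644016), which went from 4.24 to 5.65. At Cfap43, a gene of cilia and flagella, the start-site means were 8.77 and 7.52 and those of the neighbour 3.53 and 5.47. Enthd1 was turned the other way: its start-site region (chr15:80561220-80561551) opened from 2.14 to 4.88 while an intronic region (chr15:80554913-80555396) went from 5.27 to 3.65. The other start-site regions that opened beside a closing distal region, chosen after their values were seen, were those of Sar1a, Atp8a1 and Rasgrp4. Rasgrp4, a Ras exchange factor of mast cells, went from 5.78 to 6.83 at its start site and from 5.89 to 4.41 in an exonic region 9910 bp downstream, inside the gene.

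Both regions had the same nearest coding gene in 102 of 114 pairs (89.5%, 82.5 to 93.9), against 94.9% of same-sign pairs (93.5 to 96.0). Among pairs more than 2 kb apart the shares were 88.2% and 92.6%, with overlapping intervals. Inside the body of a single coding gene lay 59 pairs (51.8%), against 47.0% of same-sign pairs. Of the 102 pairs sharing a nearest gene, inside or outside its body, the lower region was nearer to a start site in 52 and the higher in 50. Distances ran to the nearest start of any coding transcript, so the 2 regions of a pair could be measured to different starts. Introns held 47.3% of the lower (38.3 to 56.5) and 56.1% of the higher members (47.0 to 64.9), against 43.4% of all lower and 41.4% of all higher regions (40.2 to 42.6). In all, the members were nearest to 120 different coding genes.

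Among the motifs, which the rule did not use, C/EBP, AP-1 and PU.1 differed between the sides, while the intervals of RUNX and GATA overlapped. C/EBP (TTGCNNAA or TTACNNAA, both strands, central 200 bp) was found in 57 of 112 lower members (50.9%, 41.8 to 60.0) and in 12 of 114 higher members (10.5%, 6.12 to 17.5), while 40.7% of all listed lower regions (39.2 to 42.3), 20.2% of all listed higher regions (19.2 to 21.2) and 28.4% of all listed regions held it. The interval of the lower members overlaps that of all lower regions and lies above that of lower regions in same-sign pairs (30.4%, 26.8 to 34.3). The interval of the higher members lies below those of all higher regions and of higher regions in same-sign pairs (20.4%, 18.5 to 22.4). With the median difference subtracted, the lower members held C/EBP in 30.1% (25.3 to 35.2) and same-sign lower regions in 29.3% (26.0 to 32.9), with overlapping intervals, so the excess in lower members was lost under that centring. The higher members then held it in 14.4% (11.1 to 18.5) and same-sign higher regions in 21.5% (19.2 to 24.0). In same-sign pairs more than 2 kb apart the lower regions held C/EBP in 34.3% (29.5 to 39.3) and the higher in 20.6% (18.4 to 23.1). Among distal regions alone the shares were 52.7% in lower members (42.6 to 62.5) 34.0% in same-sign lower regions (29.9 to 38.4) and 44.7% in all lower regions (43.0 to 46.3), the last within the interval of the members. Lower members with the motif had a median change of -1.58 and those without it -1.35.

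AP-1 (TGACTCA, searched on both strands) had the opposite arrangement. It was found in 36 higher members (31.6%, 23.8 to 40.6) and 1 lower member (0.893%, 0.158 to 4.88), against 26.6% of all higher (25.5 to 27.7), 4.65% of all lower (4.04 to 5.35) and 17.9% of all listed regions. The intervals of the members overlap those of all higher and all lower regions. In same-sign pairs it was in 23.4% of higher and 5.77% of lower regions. With the median difference subtracted, AP-1 was in 9.82% of lower and 31.5% of higher members. Higher members with AP-1 had a median change of 1.90 and those without it 1.43. PU.1 (GAGGAAGT) was in 11 higher members (9.65%, 5.47 to 16.5) and in 0 of 112 lower members, with a 95% Wilson upper bound of 3.32%, and in 13.0% of all higher (12.2 to 13.9), 3.37% of all lower (2.85 to 3.97) and 9.17% of all listed regions, with overlapping intervals. RUNX (AACCACA) was in 8.93% of lower and 12.3% of higher members, and GATA (searched as AGATAA) in 9.82% and 8.77%, both with overlapping intervals. Over all listed regions these motifs were in 11.9% and 7.55%. With the median difference subtracted, RUNX was in 11.3% of lower members (8.35 to 15.3) and 5.44% of same-sign lower regions (3.95 to 7.44), without overlap. Its shares in higher members and same-sign higher regions were then 11.2% and 14.6%. In 34 of the 10016 windows a C/EBP match overlapped a match of another motif, and in 0 of the 226 members.

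**Figure D4:**
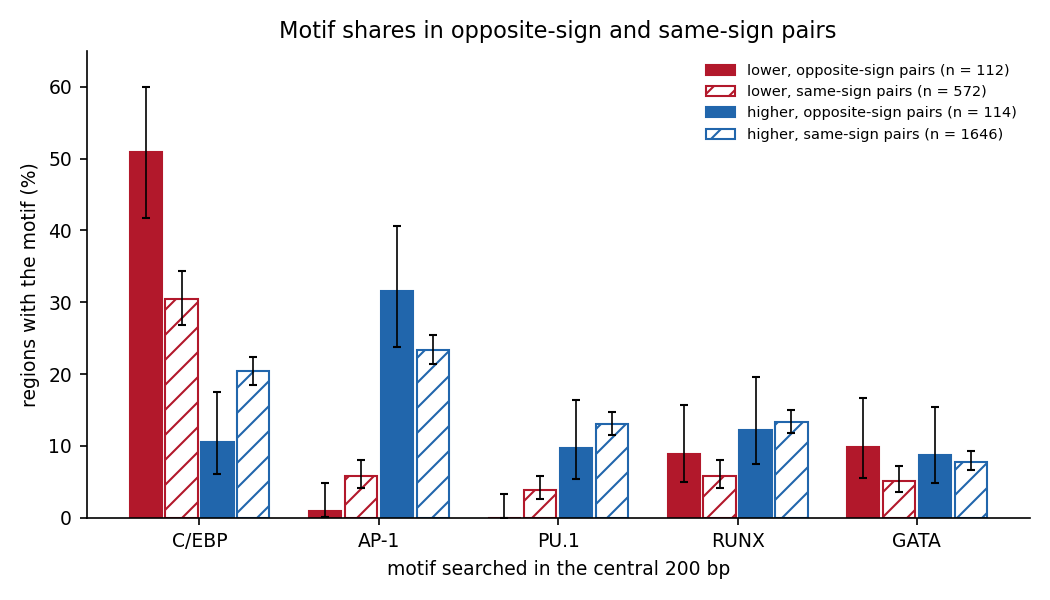
Percent of regions (y axis) holding each motif (x axis) in the central 200 bp, for lower (red) and higher (blue) regions of opposite-sign pairs (filled) and same-sign pairs (hatched), with 95% Wilson intervals. C/EBP stands at 50.9% in lower and 10.5% in higher members, AP-1 at 0.893% and 31.6%.

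Read by pair, C/EBP was in the lower region only in 52 pairs, in the higher only in 7, in both in 5 and in neither in 50. AP-1 was in the higher region only in 35 pairs and in the lower only in 0. Exactly 1 region of the pair held C/EBP in 51.8% of opposite-sign and 33.2% of same-sign pairs, and AP-1 in 30.7% and 27.5%. For PU.1 the shares were 9.65% and 18.02%. Same-sign pairs were mostly higher on both sides (941 of 1254), while each opposite-sign pair joined a lower and a higher region. These shares depend on that mix of directions, because motif frequencies differ between lower and higher regions. The comparison was not adjusted for the mix, so nothing about the pairs is read from it. Over all listed regions C/EBP was in 40.7% of lower and 20.2% of higher ones, and AP-1 in 4.65% and 26.6%. An asymmetry of the following kind is therefore not particular to the pairs. In 19 pairs (16.7%, 10.9 to 24.6) the lower region held C/EBP and the higher held AP-1, and in 0 pairs the reverse. With PU.1 and RUNX counted beside AP-1 there were 30 such pairs (26.3%) and 1 of the reverse. It was intergenic, 723019 and 732813 bp upstream of the nearest coding gene, Zeb2, and was named after its values were seen. The region with RUNX went from 6.42 to 5.34 there, and that with C/EBP and AP-1 from 5.43 to 6.43. No motif of C/EBP, AP-1, PU.1 or RUNX was found in either region of 27 pairs (23.7%).

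At start sites the lower members held C/EBP in 8 of 19 (42.1%, 23.1 to 63.7), while 15.9% of all lower start-site regions held it (13.1 to 19.2) and 12.5% of those in same-sign pairs (7.30 to 20.6). The 8 were at Acoxl, 9930022D16Rik, Aebp1, BC024139, Rbp4, Chpt1, Gaa and Slc11a2, the last 3 named after their values were seen. Chpt1 encodes an enzyme of phosphatidylcholine synthesis, Gaa the lysosomal acid glucosidase and Slc11a2 an iron transporter. At Slc11a2 the start-site region went from 5.44 to 3.95 and an intronic region of the gene from 5.32 to 6.47. None of the 8 higher start-site members held C/EBP, with an upper bound of 32.4% at this number.

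The 2 loci with 3 regions showed alternating directions. Near Id2, which encodes a helix-loop-helix inhibitor of differentiation factors, the middle region (chr12:25264958-25265445) went from 6.20 to 4.78. The regions on its sides went from 5.33 to 6.32 (chr12:25254699-25255117) and from 4.44 to 6.00 (chr12:25268248-25268666). All 3 were intergenic and lay 157559 to 171108 bp upstream of Id2. At Sar1a, a GTPase of vesicle transport, the middle region (chr10:61675984-61676300) went from 7.01 to 6.23. The start-site region (chr10:61679995-61680668) went from 8.84 to 9.35 and a region in an intron of the adjoining gene Ppa1 (chr10:61669948-61670254) from 2.85 to 5.12. Neither pair at Sar1a exchanged its order of levels, since the start-site region was the stronger throughout and the middle region stayed above that in Ppa1.

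**Figure D5:**
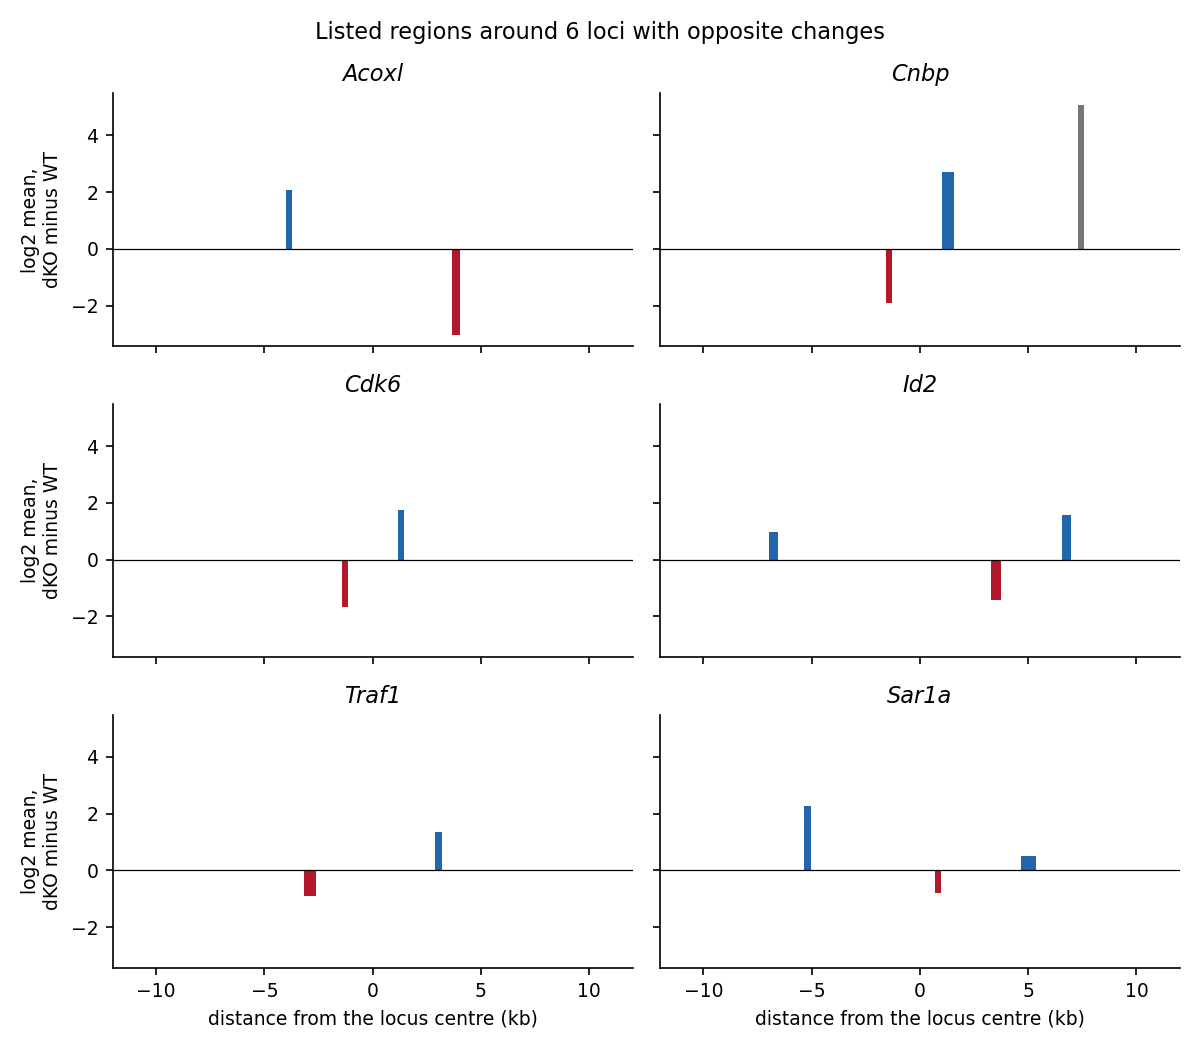
Listed regions around 6 loci: bars show the change (y axis, log2 mean in dKO minus WT) at their distance from the locus centre (x axis, kb), with bar width the region's width. Red and blue are lower and higher members and grey is a listed region that is no member; Id2 and Sar1a show a closing region between opening ones.

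Among the gene lists, members were few. Of 86 listed regions nearest to genes of the HOX and MLL-fusion program, 4 were members (4.65%), where 2.26% of all listed regions were, and they formed the pairs at Cdk6 and Fut8. In an intron of Cdk6, the kinase that drives entry into the cell cycle, a region with C/EBP (chr5:3418325-3418608) went from 5.41 to 3.75, 3.16-fold lower. Another intronic region of the gene 2315 bp away (chr5:3420923-3421182) went from 3.24 to 4.98, 3.34-fold higher, so the stronger of the 2 differed between WT and dKO. At 103297 and 107206 bp upstream of Fut8, a fucosyltransferase gene, the means were 8.46 and 7.86 (chr12:77134241-77134828) against 5.41 and 6.39 (chr12:77130617-77130919), and the order did not change.

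Of 16 regions nearest to NF-kB and inflammatory genes, 4 were members (25%, against 2.26% of all listed regions), in pairs at Socs3 and Traf1. Near Socs3, an inhibitor of cytokine signalling, the means were 7.11 and 6.11 (chr11:117954052-117954498) and 5.25 and 6.31 (chr11:117946384-117947223). Near Traf1, an adaptor of tumour necrosis factor receptors, they were 8.31 and 7.39 for an intergenic region (chr2:34938719-34939306) and 4.70 and 6.05 for an intronic one with AP-1 (chr2:34944772-34945093). Myeloid genes had 3 members of 47 regions (6.38%), all at Id2. The other 7 lists had 0 members: the C/EBP family (12 regions), genes that HOXA9 and C/EBPα regulate jointly (37), stem and progenitor regulators (39), AP-1 and BACH factors (22), and markers of mast, erythroid and lymphoid cells (1, 2 and 7). These numbers are small, and no list was tested.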

How the data were processed

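ATAC-seq libraries came from MLL-ENL–transformed cells in 3 groups of 2. Per the methods, the authors preprocessed reads with PiGx, aligned them to mm10 with Bowtie 2, called peaks with MACS2 and compared groups with DiffBind 2.14.0 at a corrected p of 0.05. The authors' deposited table holds log2 mean normalised reads per group, and also their fold changes, p-values and FDR, which were not used. Both of the 2 files had the same content (1 distinct table), with no column for dKO-LAP*. Only regions past the cutoff are listed, so unchanged neighbours are unknown. Handling of duplicates and the Tn5 offset was not given in the sources used here. An offset would move edges by a few bases, and retained duplicates would raise strong regions.

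Listed regions were sorted by chromosome and start, and adjacent pairs within 10 kb were split by the sign of dKO minus WT. Annotation was GENCODE M21 on GRCm38.p6, and start-site regions lay within 1 kb of a coding start. Motifs were searched as strings on both strands in the central 200 bp, and shares carry 95% Wilson intervals. Where a mean was at or under 3 reads per library, folds are bounds against that floor. Python 3.11.15, pandas 2.3.3 and scipy 1.17.1 were used, and the scripts were tested on simulated data. With only group means there was no test. The members, 10 gene lists and rules were chosen with earlier results of these data known. Named, except for 1 pair that is not reported here, were the 10 pairs with the largest smaller change and all means above the floor, the 5 closest, the 8 largest joining a start-site and a distal region, the 3 loci with most regions, and up to 3 pairs per gene list. Alternatives changed the gap limit, size, centring, floor, chromosomes, start-site limit and motif window.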

Additional observations from a re-analysis of the deposited data

How the results depend on the processing

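No paired analysis was possible because only authors' means over each group were at hand, and for the same reason no replicate could be left out. Over 14 results, 115 of 147 alternative values stayed within the interval or within 1.5 times the count. Gap limits of 2, 5 and 20 kb gave 12, 42 and 261 opposite pairs, which were 2.69%, 5.17% and 11.8% of adjacent pairs, of which 100%, 95.2% and 78.9% shared their nearest gene. Subtracting the median difference of 0.98 split the regions into 5005 higher (49.97%) and 4972 lower and gave 354 opposite pairs (25.9%). Of the 114 pairs 100 stayed opposite. Lower members then held C/EBP in 30.1%, AP-1 in 9.82% and PU.1 in 8.90%. In whole regions the lower members held C/EBP in 66.1%, AP-1 in 6.25%, PU.1 in 3.57%, RUNX in 19.6% and GATA in 18.8%, and the higher held C/EBP in 25.4% and GATA in 21.1%. In the central 100 bp the lower held C/EBP in 35.7%, AP-1 in 0% and RUNX in 3.57%, and the higher C/EBP in 1.75% and RUNX in 7.02%. At a 2 kb limit, with 12 lower members, C/EBP was in 41.7% and AP-1 and RUNX in 0% of the lower, and PU.1 in 0% and RUNX in 25.0% of the higher. At 5 kb AP-1 was in 0% of the lower. C/EBP was more frequent in the lower members in 12 of 12 settings, AP-1 and PU.1 in 0 of 12, RUNX in 2 and GATA in 9. The cause of these shifts was not tested beyond the wider or narrower windows and limits themselves. Depth limits the 9 members at the floor, and the listing cutoff hides unchanged neighbours.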

Other observations

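The share of opposite pairs differed between the chromosomes, from 1.43% on chromosome 9 to 18.8% on chromosome 12. The balance of directions also differed between them, and the shares were not adjusted for it. Chromosomes 14 (17.3%) and 8 (15.7%) were also high, and 13 (4.00%) and 18 (3.92%) also low. Chromosome 11 had 15 opposite pairs of 83 adjacent pairs (18.1%, 95% Wilson interval 11.3 to 27.7) and chromosome 12 had 12 of 64 (18.8%, 11.1 to 30.0). Chromosome 10, where 82.0% of the listed regions were higher in dKO, had 4 of 148 (2.70%, 1.06 to 6.74). On chromosome 9 there was 1 of 70, inside Jam3, a gene for a junctional adhesion molecule, where means went from 6.82 to 5.73 and, 1037 bp away, from 5.87 to 6.73. Intervals cover counting error only, and the choice of chromosomes was made after their values were seen.

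Repeat-masked sequence filled more than 50% of the window in 1 of 112 lower members (0.893%) and in 8 of 114 higher members (7.02%), against 3.11% of all lower and 8.43% of all higher listed regions. The GC content of the window was similar, with medians of 51.5% in lower and 51.0% in higher members. Start-site members were richer in GC, with medians of 59.5% in lower and 59.0% in higher regions.

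In 5 pairs both regions held C/EBP: at 9930022D16Rik, Tnfsf14, Kctd10, Npc1 and between Slc13a2 and Slc46a1, chosen after their values were seen. At Tnfsf14, a cytokine of the tumour necrosis factor family, the region without AP-1 went from 6.04 to 4.81 and the region that also held AP-1 from 5.73 to 6.89. In 3 of the 5 pairs the higher region also held AP-1.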
